A study of Saccharomyces cerevisiae with 6 samples.

Results

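The genes described here are 10 genes of purine nucleotide synthesis in budding yeast, out of 6212 identifiers on the arrays. They were chosen by pathway, from the ADE gene names, after ADE17 had been seen among the genes with the highest mean ratio on these same arrays. Their ratios are therefore given as a description, with no test. All 10 had a value on all 6 arrays, against 3391 of the 6212 identifiers. Cells carried a kanMX4-tetO7 cassette directly before the coding region of YPI1 (strain mmr09-4 in the CML476 background), a promoter that doxycycline switches off. Ypi1 is a protein that binds and regulates the type 1 protein phosphatase Glc7, and the series concerns its role in mitosis. Cells in YPD, a rich medium, received 100 µg/ml doxycycline in an ethanol and water mix for 2, 4 or 6 h, and were compared with cells of that strain given the mix alone for as long. Both sides of every ratio thus carried the tetO7 promoter in 1 strain, and a strain with the native YPI1 promoter was not analysed here, so that an effect of doxycycline itself and of the loss of YPI1 cannot be told apart.

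Yeast makes purines by building the ring stepwise on phosphoribosyl pyrophosphate until inosine monophosphate (IMP) is reached, which is then turned into AMP or GMP. Transcription of most ADE genes is known to rise when cells lack adenine, through the factors Bas1 and Pho2, which respond to intermediates of the pathway itself. Folate-bound one-carbon units feed carbon atoms into the ring, and one of the last intermediates, AICAR, is also released by histidine synthesis.

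Total RNA of treated and untreated cells was hybridised together on 2-colour arrays, with 1 RNA pair per time on 2 arrays of opposite dye. A value at a time is the mean ± SD of these 2 technical arrays, and no biological replicate stands behind it. Each value is a log2 ratio of doxycycline-treated over untreated cells, so 1 is a doubling. The arrays held 4250 to 4804 genes. YPI1 (YFR003C) had ratios of −4.06 and −4.73 on the 2 h arrays, then −5.32 and −5.64 at 4 h, and later −6.44 and −6.17 at 6 h, which puts it below untreated cells on each of the 6 arrays. Pearson's r between the 2 arrays of a time was −0.40 for 2 h, −0.17 for 4 h and 0.87 for 6 h, across genes, which do not count as replicates. The 4 h and 6 h arrays with doxycycline in Cy5 also ran against each other (r = −0.25, or −0.31 without YPI1), while r for the other 5 pairs of arrays with doxycycline in one dye, across times, lay between 0.22 and 0.58. The direction of all ratios rests on YPI1.

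At 6 h the purine genes lay far apart, between −0.94 for ADE8 and 2.11 for ADE5,7, with a median of 0.65 against −0.10 for all 4160 genes measured on both 6 h arrays. ADE5,7, ADE3 and ADE17 were at least 2-fold above untreated cells on both arrays. Of the 10 members, 3 thus passed this size rule on the high side and 0 on the low side, where 6.42% and 4.62% of all genes did. Above 0 on both arrays were 7 members, against 39.4% of all genes, and below 0 on both were 3, against 48.3%. Since the members were chosen after ADE17 had been seen to be high on these arrays, nothing is read from these shares. With a curve of ratio on gene length removed, 0 members passed the size rule, and the count over all genes was 233 against 459. The means of ADE5,7, ADE3 and ADE17 were then 1.36, 1.02 and 0.65, and ADE5,7 and ADE3 fell short of the rule on 1 array. Scaling the arrays to 1 spread left 2 of all genes past it and 0 members, which says nothing of the members. At 2 h and 4 h the members lay close to 0, with medians of 0.10 and 0.0008. The 2 h median was 0.20 on replicate 1 and −0.018 on replicate 2.

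The 6 h ratios went with gene length over the whole array, and the purine genes span a wide range of it. Lengths here are annotated spans in the R64 assembly. Spearman's rho between length and the 6 h ratio was 0.628 over 3921 genes and 0.806 over the 10 members, given as a description of points that share the same 2 arrays. The shortest member, ADE8 at 645 bp, had the lowest ratio, and ADE5,7 at 2409 bp and ADE3 at 2841 bp the highest. ADE6, the longest at 4077 bp, was lower than both, at 0.65. At 2 h rho was 0.151 over all genes and −0.248 over the members, and at 4 h it was −0.294 and −0.358.

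**Figure D1:**
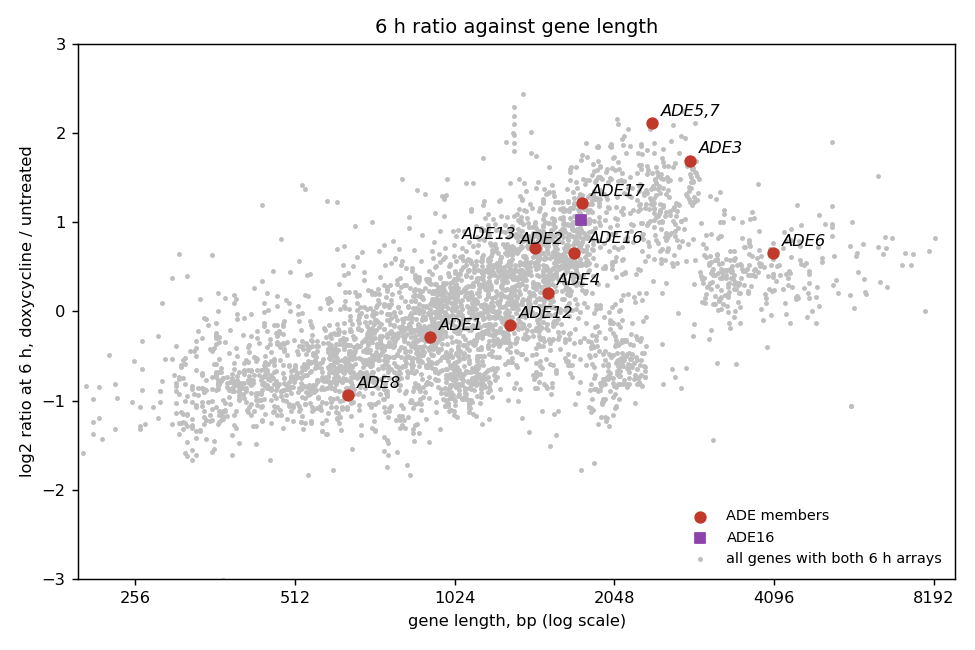
Log2 ratio of doxycycline-treated over untreated cells at 6 h (y axis) against annotated gene length in bp (log axis), for the 10 ADE members (red), ADE16 (purple) and all other genes (grey). Genes beyond the axes, YPI1 at −6.30 among them, are not drawn. The members run from ADE8 at −0.94 up to ADE5,7 at 2.11, which is rank 8 from the top among 4160 genes. With a curve of ratio on length removed they still ran from −0.41 for ADE8 to 1.36 for ADE5,7.

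Each gene was therefore also set against the 20 genes nearest to it in length on its own chromosome, called genes of like length below. On this scale, the difference in log2 ratio at 6 h, the median of the members was 0.016, with array medians of 0.082 and −0.0098, against −0.0025 for all genes. The members lay between −0.31 for ADE4 and 0.89 for ADE5,7. None of the 10 was 2-fold above or below its genes of like length on both arrays, where 1.4% of 3921 genes were above and 2.01% below. On both arrays 5 members were above their genes of like length and 4 below, against 36.3% and 38% of all genes. The broad position of the set at 6 h was thus near that of genes of like length on the same chromosomes, and 4 members, ADE5,7, ADE17, ADE3 and ADE6, stood further above them than the rest. With a curve of ratio on length removed instead, ADE6 was at 0.13, under ADE13 at 0.31.

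**Figure D2:**
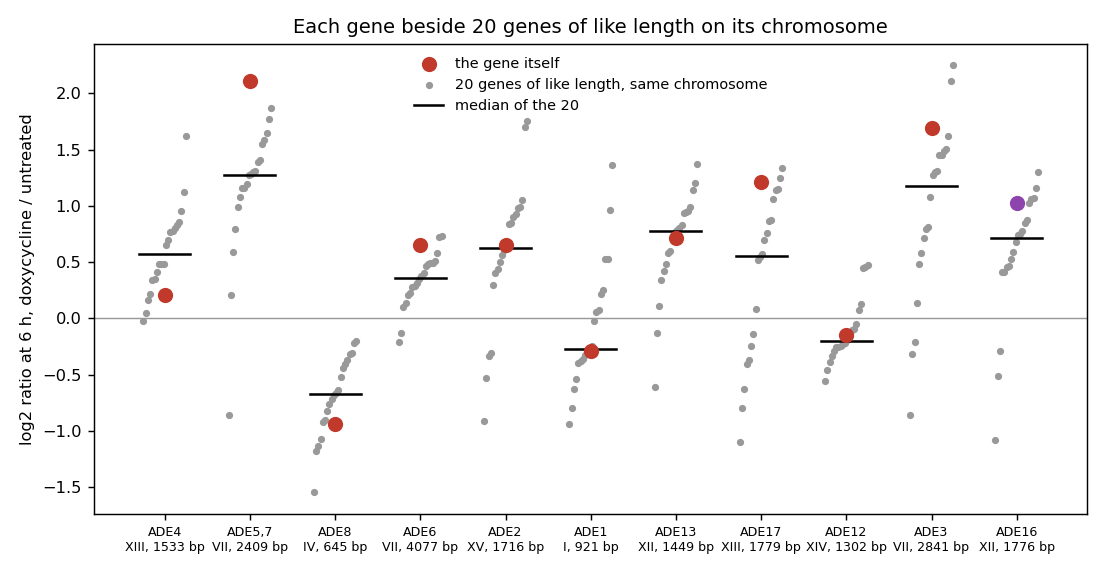
Log2 ratio at 6 h (y axis) of each ADE member (red) and ADE16 (purple) beside its 20 genes of like length on the same chromosome (grey dots, in rising order) and their median (black bar), with chromosome and length under each name. ADE5,7 lies above all 20 of its genes, while ADE2, ADE1, ADE13 and ADE12 lie within the middle of theirs.

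The first enzyme of the pathway, the amidotransferase Ade4 that commits phosphoribosyl pyrophosphate to purines, had a gene close to 0 at all times. ADE4 (YMR300C, chromosome XIII) gave 0.16 and 0.10 on the 2 h arrays, −0.30 and 0.001 at 4 h, then 0.09 and 0.33 at 6 h. It was slightly above 0 on both arrays at 2 h and 6 h and near or below 0 at 4 h. Its mean at 6 h was 0.21 ± 0.17, the fourth lowest of the members, and 17 of its 20 genes of like length were higher.

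ADE5,7 (YGL234W, chromosome VII) had the highest 6 h ratio of the set. It encodes a protein with 2 activities of the pathway, glycinamide ribotide synthetase and aminoimidazole ribotide synthetase. The ratio was 0.97 and −0.09 on the 2 h arrays, −0.25 and −0.15 at 4 h, then 1.57 and 2.65 at 6 h. It was high at 6 h on both arrays and slightly low at 4 h on both, while the 2 h arrays disagreed in sign. The 6 h mean of 2.11 ± 0.76 is 4.31 times the level in untreated cells and rank 8 from the top among 4160 genes. All 20 genes of like length were lower, the highest of them at 1.87. Set against them on each array, ADE5,7 was at 0.37 and 1.42, so that the size of the excess differed widely between the arrays.

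The genes of the next steps moved apart from it and from each other. ADE8 (YDR408C, chromosome IV), which encodes the formyltransferase that adds the first folate-borne carbon, gave 0.40 and −0.18 at 2 h, 0.27 and −0.13 at 4 h, then −1.12 and −0.77 at 6 h. It was the lowest member at 6 h, at −0.94 ± 0.25 or 1.92 times below untreated cells, and just outside the 2-fold rule because of replicate 2. Genes of its length on chromosome IV were also low, with a median of −0.68, and 4 of 20 were lower than ADE8.

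ADE6 (YGR061C, chromosome VII) encodes the amidotransferase that follows. It gave −0.08 and −0.06 at 2 h, 0.11 and −0.003 at 4 h, then 0.70 and 0.61 at 6 h. Its 2 arrays agreed closely at 6 h, with a mean of 0.65 ± 0.06, and 18 of 20 genes of like length were lower. The 20 genes run from 3111 to 4962 bp, a wider window than for most members, since long genes are few.

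ADE2 and ADE1 complete the ring-building middle of the pathway, and colonies that lack either enzyme are known to turn red. ADE2 (YOR128C, chromosome XV), for the carboxylase step, gave −0.02 and −0.05 at 2 h, −0.21 and 0.03 at 4 h, then 0.67 and 0.63 at 6 h. The 6 h mean of 0.65 ± 0.03 was close to the median of 0.63 of its genes of like length, with 9 higher and 11 lower. ADE1 (YAR015W, chromosome I), for the step that joins aspartate, gave 0.13 and 0.05 at 2 h, 0.01 and 0.05 at 4 h, then −0.41 and −0.17 at 6 h. ADE1 was thus below untreated cells at 6 h, at −0.29 ± 0.17, again close to the median of its genes of like length, −0.27. These 20 genes run from 639 to 1200 bp around the 921 bp of ADE1. The difference was −0.06 against 10, −0.08 against 20 and −0.30 against 40 genes of like length.

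ADE13 (YLR359W, chromosome XII) encodes adenylosuccinate lyase, which acts both on the way to IMP and in the last step to AMP. It gave 0.11 and 0.02 at 2 h, −0.03 and 0.14 at 4 h, then 0.68 and 0.74 at 6 h. Its 6 h mean of 0.71 ± 0.04 had a narrow spread between the arrays and lay under the median of 0.78 of its genes of like length. ADE12 (YNL220W, chromosome XIV), for adenylosuccinate synthase, the first step from IMP to AMP, gave 0.25 and 0.12 at 2 h, −0.09 and 0.03 at 4 h, then −0.20 and −0.10 at 6 h. Of the 2 enzymes between IMP and AMP, 1 had a gene above 0 on both arrays at 6 h and the other below 0 on both.

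ADE17 (YMR120C, chromosome XIII) was the single member above 0 on each of the 6 arrays, as were 1% of the 3391 genes with values on all. Its enzyme turns AICAR into IMP and closes the ring. The ratios were 0.75 and 0.13 at 2 h, 0.001 and 0.17 at 4 h, then 1.04 and 1.39 at 6 h. They were high at 6 h, uneven between the arrays at 2 h and near 0 at 4 h, with means of 0.44 ± 0.44, 0.09 ± 0.12 and 1.21 ± 0.25. The 6 h mean is 2.32 times the level in untreated cells, and over the times the mean was 0.58. Of its 20 genes of like length 18 were lower at 6 h. Set against them on each array it was at 0.35 and 0.95.

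ADE16 (YLR028C, chromosome XII), which encodes the other form of that enzyme and was not among the chosen genes, gave −0.13 and −0.07 at 2 h, −0.24 and 0.10 at 4 h, then 1.02 and 1.03 at 6 h. It thus lay below ADE17 on each of the 6 arrays, and both genes were past 2-fold at 6 h. Set against its genes of like length ADE16 was at 0.36 and 0.24 on the 6 h arrays. The genes have similar sequences, and how far the spots of one can bind cDNA of the other was not tested.

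ADE3 (YGR204W, chromosome VII) encodes the cytoplasmic C1-tetrahydrofolate synthase, which supplies the folate-borne carbon used by the pathway. It gave 0.45 and −0.44 at 2 h, −0.23 and −0.16 at 4 h, then 1.39 and 1.99 at 6 h. The 2 h arrays cancelled, both 4 h arrays were below 0 and both 6 h arrays far above it. At 6 h the mean was 1.69 ± 0.42, or 3.23 times the level in untreated cells, and 18 of 20 genes of like length were lower. These 20 run from 2409 to 3255 bp and include ADE5,7, 1 of the 2 that were higher. Set against them on each array ADE3 was at 0.084 and 0.91, so that nearly all of the excess stood on 1 array.

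**Figure D3:**
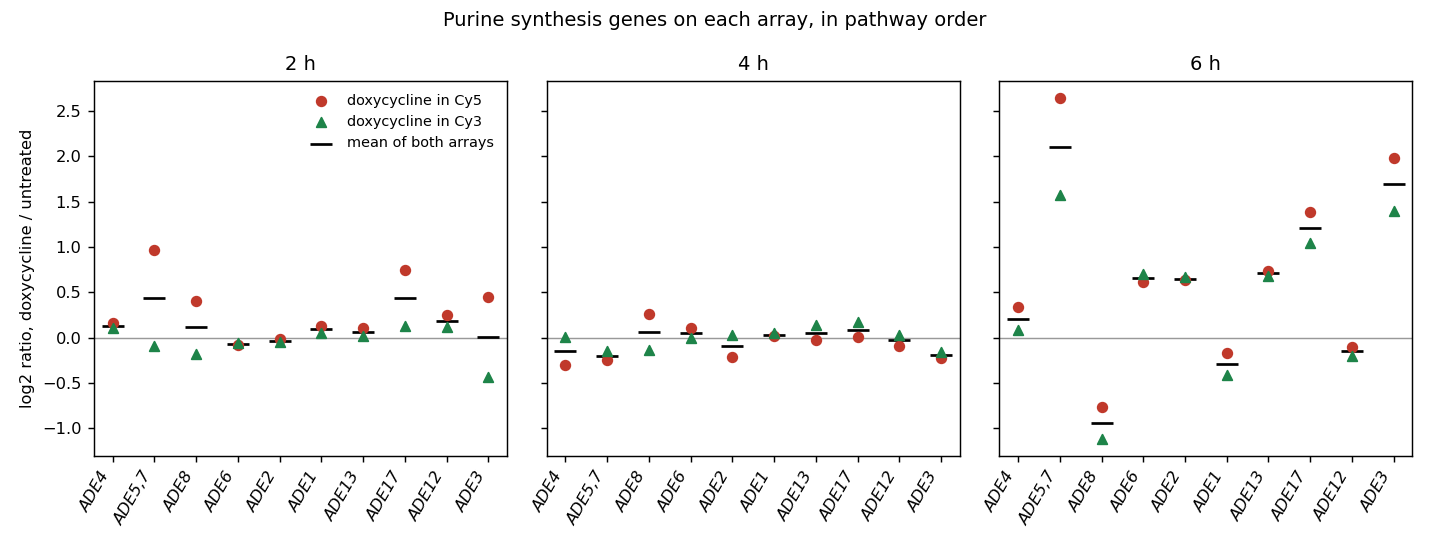
Log2 ratio of doxycycline-treated over untreated cells (y axis) for the 10 ADE members in the order of the pathway, ADE3 of folate metabolism last, at 2, 4 and 6 h. Circles are arrays with doxycycline in Cy5, triangles arrays with doxycycline in Cy3 and bars the mean of both. Values stay between −0.44 and 0.97 at 2 h and between −0.30 and 0.27 at 4 h, and spread from −1.12 to 2.65 at 6 h.

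At the earlier times no member reached the size rule. At 2 h 0 of 10 were past 2-fold on both arrays, where 0.0486% of 4119 genes were, and at 4 h 0 of 10, where 0.064% of 4691 genes were. At 2 h 5 members were above 0 on both arrays and 2 below, against 16.8% and 16.3% of all genes, and the other 3, ADE5,7, ADE8 and ADE3, had opposite signs. ADE17 and ADE5,7 were the highest members at 2 h, at 0.44 ± 0.44 and 0.44 ± 0.75, ranks 15 and 16 from the top among 4119 genes, with spreads as large as or larger than their means. At 4 h 2 members, ADE1 and ADE17, were above 0 on both arrays and 2, ADE5,7 and ADE3, below, against 18.1% and 17.5% of all genes. The 2 genes with the highest 6 h ratios, ADE5,7 and ADE3, were thus the lowest members at 4 h, at −0.20 ± 0.07 and −0.19 ± 0.05.

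Dye orientation moved with the values of these same genes. At 2 h 9 of 10 members were higher on the array with doxycycline in Cy5 than on its swap, by a median of 0.11, against 2231 of 4119 genes with a median of 0.053. At 6 h 8 of 10 were higher there, by a median of 0.24, against 2646 of 4160 genes with a median of 0.11. At 4 h 2 of 10 were higher there, with a median of −0.11, against 2475 of 4691 genes with a median of 0.030. The gap was widest for ADE5,7, at 1.07 both at 2 h and at 6 h but −0.10 at 4 h. Gaps at 2 h and 6 h were 0.89 and 0.60 for ADE3 and 0.62 and 0.35 for ADE17. ADE8, the lowest member at 6 h, had similar gaps of 0.58 and 0.35. Its gap at 4 h, 0.40, was the widest of the members at that time. ADE2, ADE6, ADE13 and ADE16 stayed close to 0 at both 2 h and 6 h. The part of the dyes in the ratios of ADE5,7, ADE3, ADE17 and ADE8 was not tested. ADE5,7, ADE3 and ADE17 were past 2-fold at 6 h in either orientation.

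**Figure D4:**
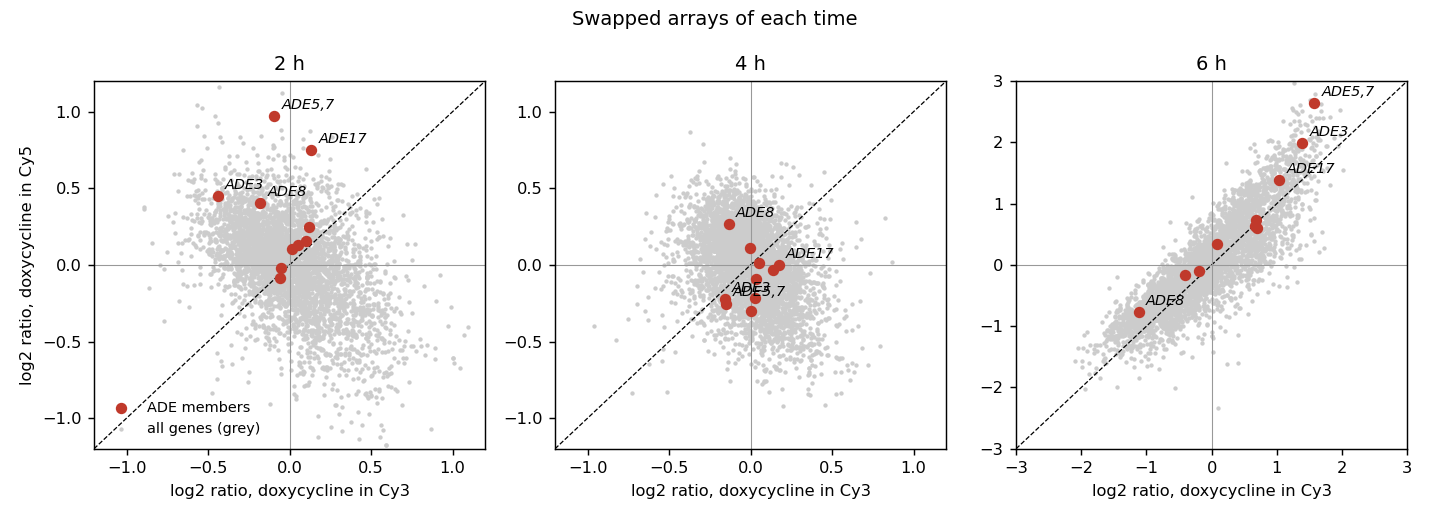
Log2 ratio on the array with doxycycline in Cy5 (y axis) against that on the swapped array with doxycycline in Cy3 (x axis) at 2, 4 and 6 h, for the ADE members (red) and all genes (grey), with the line of equal values dashed. Genes beyond the axes are not drawn. ADE5,7, ADE3, ADE17 and ADE8 lie above the line at 2 h and 6 h.

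The members lay at unlike distances from ADE17 over the arrays. Likeness to ADE17 was measured as the Euclidean distance over the 6 arrays among 3391 genes, whose median distance was 2.11. Arrays were not scaled, so the 6 h arrays, with SDs of 0.78 and 0.81 over genes, weigh most. The SDs of the other arrays were 0.22 to 0.32. The nearest of the other members was ADE13 at 0.99, rank 330 among 3390 genes, followed by ADE3 at 1.03, rank 376, and ADE8 was the farthest at 3.11, rank 2985. ADE16 was at 1.00, rank 345. The 5 genes nearest to ADE17 were GAD1, for glutamate decarboxylase, at 0.33, CHS2, for the chitin synthase of the primary septum, at 0.34, YHR020W at 0.34, RTG1, for a transcription factor of the mitochondrial retrograde response, at 0.36, and TPA1 at 0.39. Their 6 h means lay between 1.17 and 1.38, their 4 h means between −0.11 and 0.10 and their 2 h means between 0.27 and 0.43.

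The genes on either side of each member were read from the order in R64, protein-coding genes only, a step added after the members' values were seen. ASI1 and RPL15B flank ADE17 and had 6 h ratios of −0.62 ± 0.02 and −1.20 ± 0.03. AAT2 and RPL15A flank ADE16 and had 0.48 ± 0.22 and −1.19 ± 0.13. RPL15A and RPL15B encode forms of one ribosomal protein. YCH1 next to ADE3 had −0.64 ± 0.44, and SEC15 next to ADE5,7 had a value on 1 array, 1.33. The measured neighbours of these high genes were thus lower than them, and those of the low genes ADE8, ADE1 and ADE12 were higher, which for genes at the ends of the range is close to given. SIZ1 and TRS120 flank ADE8 and had 0.73 ± 0.09 and 0.02 ± 0.42. KIN3 next to ADE1 had 0.56 ± 0.21, and on the other side BUD14 had a value on 1 array, 1.61, as had ALG9 next to ADE12, 0.62. The measured neighbours of ADE4, ADE6, ADE2 and ADE13 lay between −0.85 and 0.64.

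Beyond the ADE genes, 53 further genes related to purines were listed, and their 6 h ratios centred near 0. The 47 with both 6 h arrays had a median log2 ratio of 0.016, or −0.026 against genes of like length, with 20 above 0 on both arrays and 19 below, where 39.4% and 48.3% of all genes were. Past 2-fold on both arrays were 2 higher, ADE16 and HIS4, and 2 lower, GUK1 and URH1, where 6.42% and 4.62% of all genes were. For this list the mean over the 3 times was tested with limma (two-sided, Benjamini-Hochberg adjustment over 3391 genes, 3 RNA pairs that differ in hours of treatment). Of 42 tested genes none passed an adjusted p of 0.05 and 0 had an unadjusted p below it. Over all genes 0.0295%, YPI1 alone, passed and 10 had an unadjusted p below 0.05. Change with time counts as error in this test, so a gene that moves at 6 h alone can hardly pass. Nothing is therefore read from it on such genes, and HIS4, without 2 h values, was not tested.

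Bas1 and Pho2, the factors that act together on ADE promoters, had genes with 6 h ratios on opposite sides of 0. BAS1 gave −0.60 and 0.11 at 2 h, −0.39 and −0.06 at 4 h, then 0.74 and 0.43 at 6 h. PHO2 gave 0.23 and 0.17 at 2 h, −0.04 and 0.13 at 4 h, then −0.41 and −0.22 at 6 h. At 6 h the difference from genes of like length was 0.59 ± 0.13 for BAS1 and −0.80 ± 0.01 for PHO2. With the length curve removed BAS1 was at −0.16 and PHO2 at −0.87, so that both then lay on one side. GCN4, for the activator of amino acid synthesis that also acts on some ADE genes, was at 0.12 ± 0.03 at 6 h.

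Of the enzymes that feed the pathway, the 5 PRPP synthetase genes had a 6 h median of −0.23, with PRS1 at −0.34 ± 0.08, PRS3 at −0.25 ± 0.03 and PRS5 at 0.78 ± 0.52. The 12 measured genes of glycine and folate-borne carbon had a median of −0.026, with 5 above 0 on both arrays and 5 below. That median was 0.15 on replicate 1 and −0.16 on replicate 2, and against genes of like length the medians of these lists were −0.18 for the PRPP synthetases and −0.12 for the glycine and folate genes. The serine hydroxymethyltransferases, which load carbon from serine onto folate, were the highest of the named genes of this list. SHM1, the mitochondrial form, gave 0.99 and 1.91 at 6 h, and SHM2, the cytosolic form, gave 0.82 and 1.15. Both therefore missed the 2-fold rule on 1 array. At 2 h SHM1 gave 0.76 and −0.50, a split between the dyes like that of ADE3. FAU1, for a folate-interconverting ligase, was at −0.93 ± 0.29 at 6 h.

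On the routes out of IMP and back into it, the 5 GMP branch genes had a 6 h median of 0.37 and the 13 salvage and interconversion genes one of −0.11. Against genes of like length both turned sign, to −0.27 and 0.14. The salvage median of the log2 ratios themselves was −0.35 on replicate 1 and 0.033 on replicate 2. Against genes of like length it was −0.008 and 0.28 on these arrays. GUK1, for guanylate kinase, gave −1.01 and −1.16. URH1, on the salvage list but for a hydrolase known to act on uridine, a pyrimidine nucleoside, gave −1.25 and −1.07. Both were past 2-fold lower. Their lengths are 564 and 1023 bp, and against genes of like length they were at −0.43 ± 0.13 and −0.33 ± 0.08. With the length curve removed GUK1 was at −0.48 and URH1 at −1.01, near its ratio as measured. Among uptake genes FCY22 was at 0.40 ± 0.24, 1 of 2 with both 6 h arrays, but at −0.22 ± 0.16 against genes of like length. HIS4, for a histidine enzyme of several activities and a known Bas1 target, gave 1.25 and 1.51 at 6 h and −0.57 and 0.07 at 4 h, and lacked values at 2 h. The other 5 measured histidine genes brought the median of that list to −0.13, and HIS4 at 2400 bp was at 0.33 ± 0.06 against 20 genes of like length, but at 0.0072 against 10 and 0.54 against 40.

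Pyrimidine synthesis genes served as the comparison from the neighbouring pathway. Their 6 h median was 0.039 over 9 genes, against 0.65 for the purine members, and against genes of like length it was 0.041, near the 0.016 of the members. URA2, which opens the pathway and is the longest gene named here at 6645 bp, was at 0.83 ± 0.10. URA8 and URA7, the CTP synthases, were at 0.68 ± 0.21 and 0.44 ± 0.25. Against genes of like length URA2 was at 0.31 ± 0.30, URA8 at 0.07 ± 0.42 and URA7 at −0.21 ± 0.11. Whether the 2 pathways differ was not tested, because the purine members were chosen after ADE17 had been seen to be high on these arrays.

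**Figure D5:**
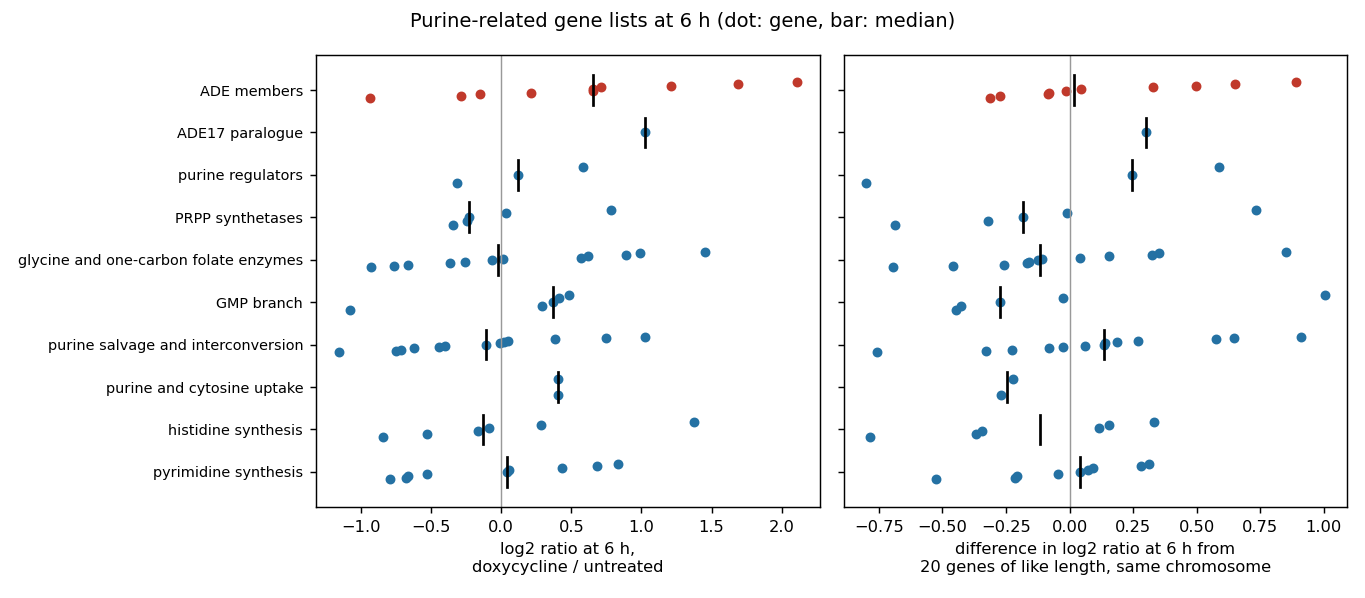
Genes (dots) and medians (bars) of the ADE members (red) and of the other purine-related and pyrimidine lists (blue) at 6 h, as log2 ratios of doxycycline-treated over untreated cells on the left and as differences from 20 genes of like length on the same chromosome on the right. The median of the members is 0.65 on the left and 0.016 on the right.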

How the data were processed

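Values are log2 ratios per reading frame and array, as deposited by the authors. No label names the base of the logarithm, and log2 is assumed from the range. Per the labels, spots were kept from a diameter of 120 µm and a signal of 100 units in the dyes upward. Normalization and the turning of swapped arrays are not given in the sources used here. The labels give Cy3 for both channels of replicate 2 of 2 h, taken here as the swap. Signal intensities were not analysed, so the number of arrays limits the precision.

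Of 6212 identifiers 5662 matched a locus tag of RefSeq R64, which gave symbols (ADE57 for ADE5,7), lengths and chromosomes, and 73 of 74 listed symbols matched. The 2 arrays of a time were averaged first. Past 2-fold means a log2 ratio of at least 1 in size on both arrays, with 1 sign. Genes of like length were taken per array among genes with a value there, and the counts of higher and lower ones among genes with both 6 h arrays. Limma 3.58.1 in R 4.3.3 (lmFit, eBayes) was fitted over all 3391 genes and tested on simulated data. In that simulation each shift was equal at all times and the spread was the same throughout, unlike in these data. It does not cover genes that move at 6 h alone. Other steps used Python 3.11.15 and statsmodels 0.14.6.

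Members and gene lists were chosen with earlier results of these data known. Named were all members, ADE16, YPI1, the 5 genes nearest to ADE17, and of each other list the genes past 2-fold at a time or past limma's test, or else up to 3 with the largest mean over the times. Alternatives were array centring and scaling, a length curve (lowess, span 0.3, 3 robust steps), genes of like length, turned Cy3 arrays, left-out replicates and times, another filter, fold limit, variance models, and arrays as units.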

Additional observations from a re-analysis of the deposited data

Results flagged for a closer look

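For some of the genes described above, both arrays of one time lay on one side of 0 and both arrays of another time on the other side. The values here are differences between the mean log2 ratios of 2 times, each the later time minus the earlier. None of these differences was tested, since each time holds 1 RNA pair.

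Among the purine genes, ADE5,7 and ADE3 were below 0 on both 4 h arrays and above it on both 6 h arrays, with differences of 2.31 and 1.88. ADE6, ADE2 and ADE16 were below 0 on both 2 h arrays and above it on both 6 h arrays, with differences of 0.72, 0.69 and 1.12. ADE1 and ADE12 went the other way, above 0 at 2 h and below it at 6 h, with differences of −0.38 and −0.34, and ADE1 differed by −0.32 between 6 h and 4 h.

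Of the genes of the other lists, the gene of the factor Bas1 differed by 0.81 between 6 h and 4 h. GCN4 differed by 0.40 between 6 h and 2 h. PHO2 and PRS1 were above 0 at 2 h and below it at 6 h, with differences of −0.51 and −0.44.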

How the results depend on the processing

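The cause of none of the changes below was tested, except where fewer arrays, another fold limit or turned Cy3 arrays make them by construction. With the Cy3 arrays turned, the value of a time rests on the gap between its 2 arrays and not on their shared level. A gene past 2-fold on both arrays with 1 sign then fails the rule. YPI1 was below 0 on all 6 arrays as deposited. The median log2 ratio of the purine members at 6 h, 0.65 as reported, was 0.70 with arrays centred on their medians, 0.34 with arrays scaled to 1 spread, 0.11 with a length curve removed, and 0.12 with the sign of the Cy3 arrays turned. Against 10, 20 or 40 genes of like length it was 0.042, 0.016 or 0.054. At 4 h the median of 0.0008 was −0.056 with the Cy3 arrays turned, and −0.062 to 0.014 with either replicate left out. At 2 h the median of 0.10 was −0.018 to 0.20 with either replicate left out.

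Of the members, 3 were past 2-fold higher at 6 h, and 0 were with the length curve, with genes of like length (10, 20 or 40), with scaled arrays or with turned arrays. At 1.5-fold 6 were higher and 1 was lower. With a replicate left out 0 to 1 were lower, ADE8 without replicate 2.

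Of all genes, 459 were past 2-fold at 6 h. That count was 233 with the length curve, 134, 146 and 142 with 20, 10 and 40 genes of like length, 2 with scaled arrays, 0 with turned arrays, 827 to 966 with a replicate left out and 1554 at 1.5-fold. At 4 h 3 genes were past 2-fold, against 1 with turned arrays, 8 with scaled arrays, 5 at 1.5-fold and 4 to 5 with a replicate left out. At 2 h 2 genes were, against 17 to 29 with a replicate left out. With the Cy3 arrays turned, YPI1 and URH1, both past 2-fold lower at 6 h, changed sign there, to 0.14 and 0.089. Genes not past 2-fold also changed sign at 6 h. Of the members, ADE8, ADE1 and ADE12 were then above 0, at 0.175, 0.12 and 0.049, and ADE2 and ADE6 below it, at −0.019 and −0.0455. The other members kept their sign, and genes of the other lists such as BAS1 and PHO2 changed it.

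Limma called 1 gene for the mean over the times. It called 2 with the length curve, 0 with 20 or 40 genes of like length, 2 with 10, 8 with scaled arrays and 755 with turned arrays. Without 2 h or 4 h it called 2, and without 6 h 11. With the 6 arrays as units it called 2 with a replicate block and 2 with a dye term. The labels do not say that replicate numbers pair the arrays across times. The differences between replicates 1 and 2 correlated across genes with 0.57 for 2 h and 4 h, −0.71 for 2 h and 6 h and −0.55 for 4 h and 6 h. Replicate 1 had doxycycline in Cy5 at 2 h and 4 h but in Cy3 at 6 h, so the difference at 6 h has the opposite dye order.

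The mean of ADE17 over the times, 0.58 as reported, ranged from 0.13 with turned arrays to 0.83 without 4 h. The limits of 10 and 40 genes and the counts of members past 2-fold were chosen after seeing the data.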
